A study of Mus musculus with 2 samples.

Results

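The miRNAs described here are encoded inside the Hox gene clusters, and they were measured in exosomes released by mouse macrophages. Members were taken by name from the deposited lists of mature miRNAs: mmu-miR-10a-5p, mmu-miR-10a-3p, mmu-miR-10b-5p, mmu-miR-10b-3p, mmu-miR-196a-5p and mmu-miR-196b-5p, where mmu stands for mouse. All 6 were listed in both libraries, among 1976 mature miRNAs. Small RNA was sequenced from exosomes of bone marrow-derived macrophages, cells that differentiate from marrow precursors under the growth factor M-CSF. The 2 libraries, 1 per group, hold RNA of M1 exosomes (the M1 library), from macrophages polarised for 1 day with IFN-γ at 20 ng/mL, and of M2 exosomes (the M2 library), from macrophages polarised for 1 day with IL-4 at 20 ng/mL. Both groups shared all else that the labels give: C57BL/6 mice aged 5 to 6 weeks, 7 days of culture with M-CSF at 10 ng/mL, and 2 days in serum-free medium before exosomes were collected by ultracentrifugation. The labels do not say how many mice or cultures stand behind each library.

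Hox genes encode transcription factors that give cells their position along the body axis, and their clusters also carry the hairpins of miR-10, miR-196 and miR-615. miR-10 and miR-196 repress Hox transcripts among other targets, and in mouse embryos miR-196 directs cleavage of the Hoxb8 transcript. In human endothelial cells miR-10a dampens NF-κB signalling, and miR-10b is well known from mesenchymal and endothelial cells and from metastatic human breast cancer cells. A miRNA recognises its targets mainly through its seed, bases 2 to 8 from the 5′ end. Each hairpin can give a mature miRNA from its 5′ arm (5p) and another from its 3′ arm (3p), of which usually 1 is retained.

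The mature sequences show why miR-10a has to be read beside miR-10b. They are from RefSeq on GRCm38.p6, the assembly called mm10, are written 5′ to 3′, and have the seed in capitals. All 6 members matched an entry there.
miR-10a-5p: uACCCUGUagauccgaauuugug
miR-10b-5p: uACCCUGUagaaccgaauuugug
miR-10a-3p: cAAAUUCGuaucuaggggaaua
miR-10b-3p: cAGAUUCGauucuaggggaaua
miR-196a-5p: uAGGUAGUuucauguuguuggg
miR-196b-5p: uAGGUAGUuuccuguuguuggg
The 5p arms fall into 2 seed groups, ACCCUGU for miR-10 and AGGUAGU for miR-196. miR-10a-5p and miR-10b-5p are 23 bases long and differ at 1 base, U12A, with positions counted from 1 at the 5′ end and the base of miR-10a first. miR-196a-5p and miR-196b-5p are 22 bases long and also differ at 1 base, A12C. The 3p arms of miR-10a and miR-10b differ at 3 bases, A3G, U9A and A10U, and the first of these lies in the seed. Whether the authors' read assignment allowed mismatches is not given in the sources used here, so reads of a pair that differs at 1 base could have been shared between its entries.

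Every member hairpin lies within a Hox cluster, and RefSeq places 6 miRNA hairpins in the 4 clusters in all, the other being Mir615. Mir10a is at chr11:96317165-96317274 on the plus strand, 993 bp from Hoxb4 and inside the span that RefSeq gives Hoxb3. GENCODE M21 has no other gene at that place. Mir10b is at chr2:74726070-74726137 on the plus strand, in an intron of Hoxd4 and of Hoxd3. Mir196a-1, at chr11:96265164-96265265 on the plus strand, lies 6065 bp from Hoxb9, in the same cluster as Mir10a. Mir196a-2, at chr15:102973350-102973434 on the plus strand, lies between Hoxc10 and Hoxc9, and GENCODE M21 also puts it in an intron of a long Hoxc5 gene model. Mir196b, at chr6:52230081-52230165 on the minus strand, lies between Hoxa10 and Hoxa9 as RefSeq draws them and in an exon of Hoxa9 in GENCODE M21. miR-196a-5p can come from either of its hairpins, and the values do not separate them.

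**Figure D1:**
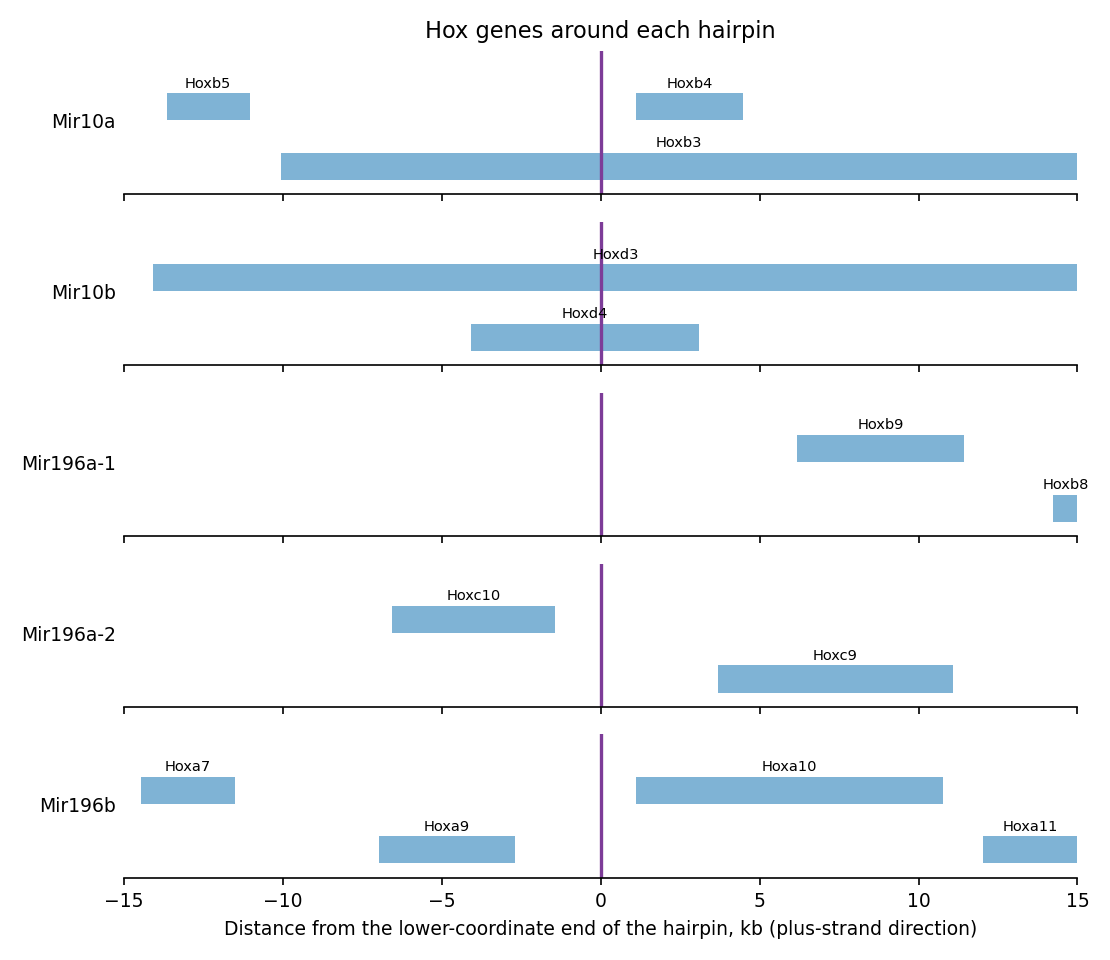
Hox genes (blue bars, RefSeq, GRCm38.p6) within 15 kb of each member hairpin (vertical line at 0), with distance in kb on the horizontal axis. Mir10a and Mir10b lie beside or within Hoxb4 and Hoxd4, and the Mir196 hairpins lie next to Hoxb9, Hoxc9 with Hoxc10, and Hoxa9 with Hoxa10.

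Each mature miRNA has a deposited value in each library, which behaves as log2(level + 1). The level in units was taken as 2 to the power of the value, minus 1. At the lowest levels, for miRNAs at or near 0 in the other library, the units fell on even steps. These steps, 0.80 units in the M1 library and 1.22 units in the M2 library, were taken as the worth of 1 read. Other low levels could fall off them, such as 0.72 units for miR-141-3p in the M1 library. The total number of reads is unknown. Summed levels were 686353 units in the M1 library and 734637 units in the M2 library, and 618 miRNAs were above 0 in the M1 library and 747 in the M2 library. The M2 count includes the 175 miRNAs that gave the M1 step, whose M2 levels were below the worth of 1 read. The counts therefore do not show that more miRNAs were detected in the M2 library. With 1 library per group no value has a replicate error, there is no test, and a difference is one between these libraries, which need not be one between the polarised states. A miRNA was compared if it reached 10 units in at least 1 library, and counted as different at 2-fold, a log2 ratio of 1 in size.

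Together the 6 members held 3.52% of the summed level in the M1 library and 2.81% in the M2 library, nearly all of it miR-10a-5p. Of the 6 members, 3 reached the minimum and were compared: both arms of miR-10a and miR-10b-5p. Of these 3, 1 was at least 2-fold higher in the M1 library, miR-10b-5p, against 26.1% of all 337 miRNAs compared. None was at least 2-fold higher in the M2 library, against 22.8% of all compared, and 2 members differed by less than 2-fold. The members' median log2 ratio was 0.08 over the 3 and 0.04 over all 337. A share of 1 in 3 is near the background and is no result about the members as a group. What follows is therefore about each member.

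**Figure D2:**
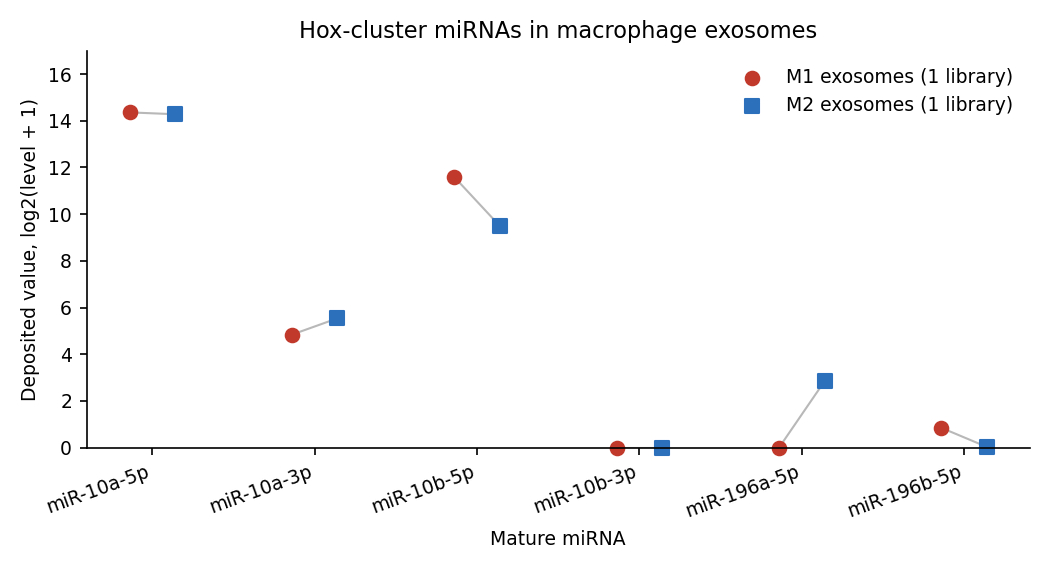
Deposited log2(level + 1) values (vertical axis) of the 6 members in the M1 library (circles) and the M2 library (squares), 1 library each. The miR-10a-5p points lie side by side at 14.36 and 14.28, those of miR-10b-5p are apart at 11.59 and 9.50, and the miR-196 points lie at or below 2.84.

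mmu-miR-10a-5p was abundant in both libraries and nearly equal between them. Its deposited log2 value was 14.36 in the M1 library and 14.28 in the M2 library, a log2 ratio of 0.08. These values are levels of 21027 units and 19906 units. It ranked 10th in both libraries, with 3.06% of the summed level in the M1 library and 2.71% in the M2 library. Only 14 of the 337 miRNAs compared had a log2 ratio this close to 0 or closer, itself included. The ratio stayed within 2-fold under every scaling, minimum and pseudocount tried.

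mmu-miR-10b-5p was lower than miR-10a-5p in both libraries and was the member that differed between them. Its log2 value was 11.59 in the M1 library and 9.50 in the M2 library, which is 4.27-fold higher in the M1 library. The levels were 3084 units in the M1 library, or 0.449% of the sum, and 722 units in the M2 library, or 0.0982% of the sum. Its rank was 27 in the M1 library and 63 in the M2 library. The log2 ratio was 2.09, and 35 of the 337 miRNAs compared, 10.4%, had a ratio at least as high, itself included. At these levels both values lie far above the worth of a few reads, so the low-level steps do not limit them.

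The seed that both miR-10 guides share was thus supplied mostly by miR-10a in either library, with a larger miR-10b part in the M1 library. miR-10a-5p was 6.82-fold above miR-10b-5p in the M1 library and 27.6-fold above it in the M2 library. miR-10b-5p made up 12.8% of the summed level of both guides in the M1 library and 3.50% in the M2 library. The sum of both guides was 24110 units in the M1 library and 20628 units in the M2 library, so the total for this seed differed far less than miR-10b-5p alone. Both guides are 23 bases long, and the ratio of one to the other within a library does not depend on any factor applied to a whole library. A correction that depends on level could still move it, and at low levels the values behave as if one was made. The M1 level was 0.80 units for miR-196b-5p, with 0.02 units in the M2 library. It was 0.69 units for miR-467a-5p, with 32.7 units in the M2 library. How far this moves the miR-10 guides is not known.

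**Figure D3:**
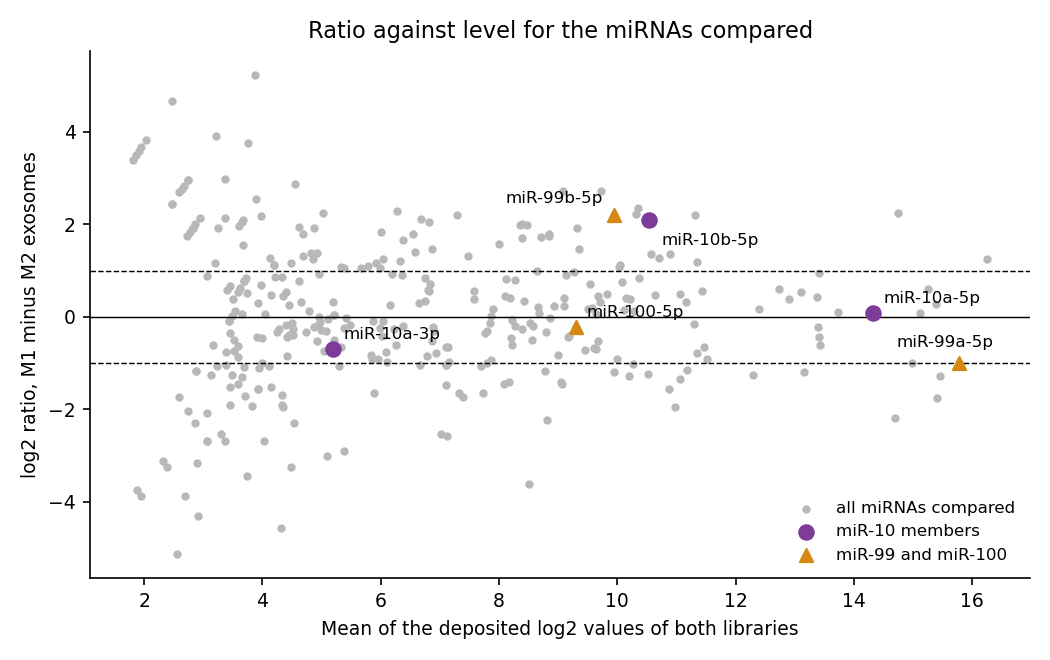
The log2 ratio, M1 minus M2 library (vertical axis), against the mean deposited log2 value (horizontal axis) for the 337 miRNAs compared (grey), the 3 compared members (purple circles) and the related miR-99 and miR-100 (orange triangles). Dashed lines mark 2-fold. miR-10b-5p stands at 2.09 beside miR-99b-5p at 2.19, while miR-10a-5p stands at 0.08.

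The log2 ratios of the miR-10 guides were 2.02 apart, a 4.04-fold difference. Among all compared miRNAs with 1 mature sequence in RefSeq, 117 pairs shared bases 2 to 8, and 17 of these pairs, 14.5%, were at least as far apart, the miR-10 pair included. The median gap over the 117 pairs was 0.78. Of the pairs with both miRNAs at 10 units or more in both libraries, 102 in number, 11 were at least as far apart. In 11 pairs the mature sequences had equal length and differed at 1 base, and among them the miR-10 pair had the largest gap. The gaps of the 11 pairs ran from 0.08 for miR-103-3p with miR-107-3p to 2.02 for miR-10a-5p with miR-10b-5p, with a median of 0.78. In 2 pairs the mature sequences were identical and the entries still differed, although reads of the mature miRNA cannot tell such entries apart. Between miR-199a-3p and miR-199b-3p the gap was 0.21, with log2 values of 9.73 and 8.80 in the M1 library, and between let-7a-1-3p and let-7c-2-3p it was 0.55. The pairs share members within families, so they are a description and not independent observations.

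**Figure D4:**
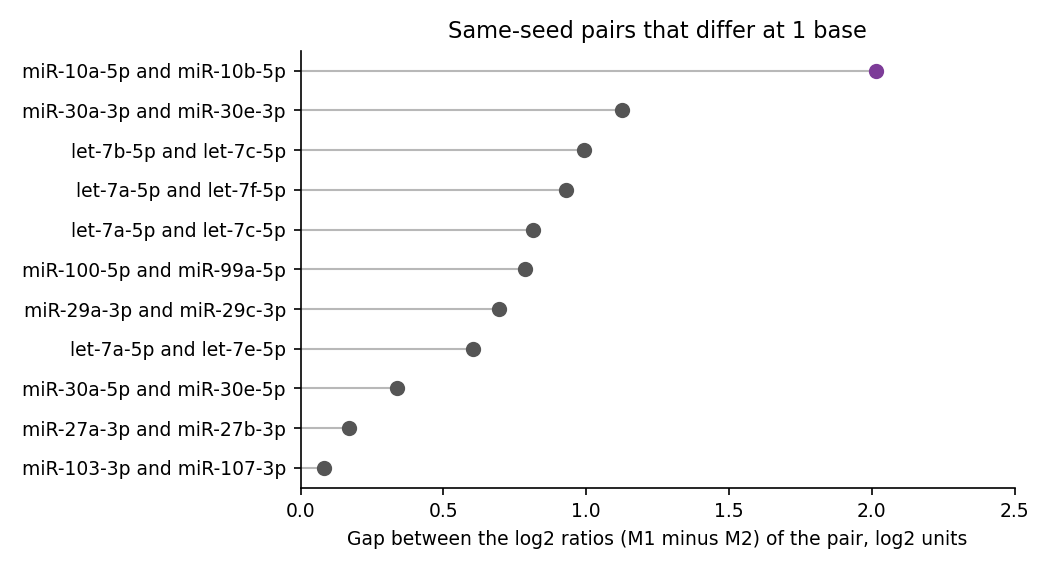
Gap between the log2 ratios (M1 minus M2 library) of the 11 same-seed pairs whose mature sequences differ at 1 base, in log2 units on the horizontal axis. The miR-10 pair (purple) has a gap of 2.02, and the next pair, miR-30a-3p with miR-30e-3p, has 1.12.

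The 3p arms, often called passenger strands, were low or listed at 0. The hairpins below are from RefSeq, on GRCm38.p6, with both mature arms in capitals, to show where each entry comes from.
Mir10a: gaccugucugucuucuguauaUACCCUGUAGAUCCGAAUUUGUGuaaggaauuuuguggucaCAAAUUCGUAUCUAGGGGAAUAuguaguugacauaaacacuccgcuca
Mir10b: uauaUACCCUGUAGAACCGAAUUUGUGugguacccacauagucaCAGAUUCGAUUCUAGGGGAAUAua
mmu-miR-10a-3p had a log2 value of 4.84 in the M1 library and 5.54 in the M2 library, or 27.7 units and 45.5 units. Its log2 ratio of -0.70 pointed the other way from that of its 5p arm but lay within 2-fold. It made up 0.131% of the 2 arms together in the M1 library and 0.228% in the M2 library. The 5p arm was 760.2-fold above the 3p arm in the M1 library and 437.9-fold above it in the M2 library.

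The arm bias of miR-10a was strong, but other hairpins had more. Of 68 hairpin names with both arms compared, 34 had the 5p arm higher in both libraries and 30 the 3p arm. The log2 difference between the arms of miR-10a was 9.52 in the M1 library and 8.74 in the M2 library, against a median absolute difference of 3.50 and 3.47 over the 68. Of these 68, 4 names in the M1 library and 8 in the M2 library, miR-10a included, had a difference at least as large. Among the 8 was miR-26b, whose lower arm was at 0.081 units in the M2 library, below the worth of 1 read. With that arm set at 3 reads, the fold of miR-26b in the M2 library was 178.8, under that of miR-10a. The 68 leave out hairpins whose lower arm stayed under 10 units. Over all 186 names with an arm compared, with the lower arm set at no less than 3 reads, 15 in the M1 library and 16 in the M2 library reached the fold of miR-10a, itself included. The change of the arm ratio between libraries, 0.78 on the log2 scale, was ordinary, since 34 of the 68 names changed by at least as much.

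**Figure D5:**
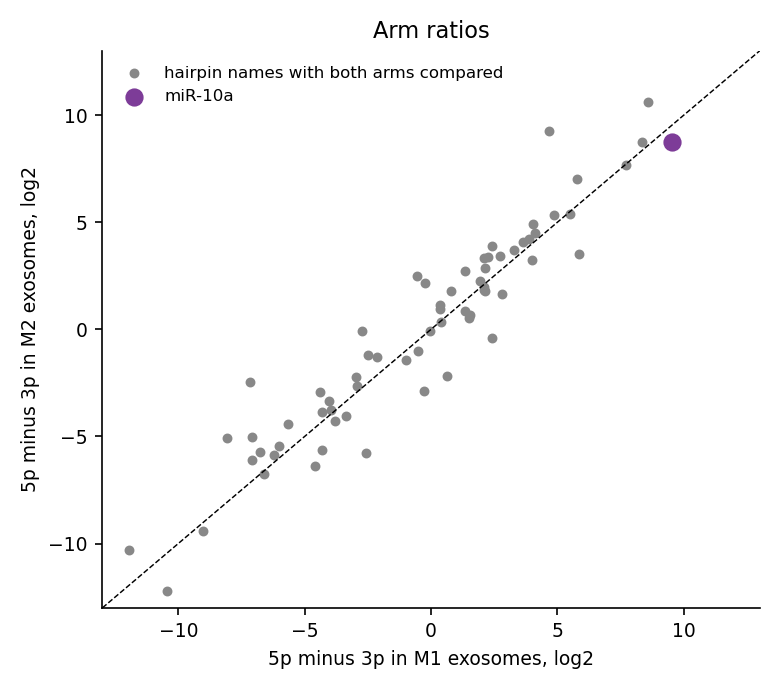
The log2 difference between the 5p and the 3p arm in the M1 library (horizontal axis) and the M2 library (vertical axis) for the 68 hairpin names with both arms compared. The dashed line marks equal differences, and miR-10a (purple) lies at 9.52 and 8.74, near the upper end of both.

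mmu-miR-10b-3p was listed at 0 in both libraries. By the one-sided limit used here, counting error alone lets up to 3 reads hide behind a 0, which is 2.40 units in the M1 library and 3.67 units in the M2 library. Set against miR-10b-5p, that limit is 0.0778% of the 5p level in the M1 library and 0.508% in the M2 library. The limits lie below the miR-10a passenger share in the M1 library but not in the M2 library, so a passenger share like that of miR-10a was detectable in the M1 library only. The 5p arm was thus at least 1285-fold above the 3p arm in the M1 library and at least 197-fold above it in the M2 library. Of the 186 names with an arm compared, 65 had the other arm at 0 in both libraries. Of 22 names with an arm at least as high as miR-10b-5p in both libraries, a level set after the values were seen, miR-10b alone had the other arm at 0 in both. That level is its own, so it is the lowest of these arms. miR-99a, at 39703 units in the M1 library and 79683 units in the M2 library, came close. Its other arm was at 0 units in the M1 library and 1.22 units, the worth of 1 read, in the M2 library.

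The miR-196 members were at the edge of detection, and no fold is given for them. mmu-miR-196a-5p was listed at 0 in the M1 library and had a log2 value of 2.84 in the M2 library, which is 6.18 units or 5 reads at the step seen there. The exact two-sided 95% Poisson interval of 5 reads is 1.62 to 11.7 reads, or 1.98 to 14.3 units, for counting error only. The difference between 0 and 5 reads was not tested, since each group has 1 library. mmu-miR-196b-5p had a log2 value of 0.85 in the M1 library, the worth of 1 read, and 0.03 in the M2 library, below the worth of 1 read. In the M2 library 0.03 was the value of many miRNAs at 1 read in the other library, so it does not stand for a read of its own.

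The other products of the Hox clusters were also looked up: miR-196a-1-3p, miR-196a-2-3p, miR-196b-3p, miR-615-5p and miR-615-3p. All 5 were listed at 0 in both libraries. Of the 11 listed products of the 6 hairpins, 6 were at 0 in both libraries and 3 could be compared. Within the Hoxb cluster, the miR-10a guide beside Hoxb4 was at 21027 units in the M1 library and 19906 units in the M2 library, while miR-196a-5p, which Mir196a-1 near Hoxb9 can give, was at 0 units and 6.18 units. Exosome levels do not tell how much of each hairpin the cells transcribed.

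The closest relatives of miR-10 outside the Hox clusters are miR-99 and miR-100, which have another seed, ACCCGUA. The stretch that they share with miR-10 is shown in capitals.
miR-10a-5p: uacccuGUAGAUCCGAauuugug
miR-99a-5p: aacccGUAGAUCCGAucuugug
miR-10b-5p: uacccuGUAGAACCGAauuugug
miR-99b-5p: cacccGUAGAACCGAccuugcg
miR-99a-5p had a log2 value of 15.28 in the M1 library and 16.28 in the M2 library, 2.01-fold lower in the M1 library. miR-99b-5p had 11.04 in the M1 library and 8.85 in the M2 library, 4.57-fold higher in the M1 library. miR-100-5p had 9.20 in the M1 library and 9.42 in the M2 library, a log2 ratio of -0.22.

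The miRNAs most like each guide were taken as the 3 at the smallest distance in the plane of the 2 log2 values, a likeness over 2 libraries only. For miR-10a-5p they were miR-24-3p at a distance of 0.83, let-7i-5p at 1.14 and miR-21a-5p at 1.20. Their log2 ratios were 0.10, 0.09 and -0.99. For miR-10b-5p they were miR-486a-5p at 0.33, miR-486b-5p at 0.34 and miR-155-5p at 0.53. Their log2 ratios were 2.36, 2.23 and 1.35. The miR-486 entries come from overlapping hairpins and may hold the same reads.

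miRNAs linked to macrophages were present in both libraries. Like miR-10b-5p, several of them and several markers of other cells were at least 2-fold higher in the M1 library. Others were not. The 7 macrophage and myeloid markers, among them miR-223-3p, miR-142a-3p and miR-146a-5p, were all compared. They held 21.8% of the summed level in the M1 library and 13.6% in the M2 library. Much of this was miR-146a-5p alone, with 17.6% in the M1 library and 6.89% in the M2 library. The next largest, miR-21a-5p, went the other way, with 3.33% in the M1 library and 6.19% in the M2 library. Of the 7 markers, 4 were at least 2-fold higher in the M1 library and 1 in the M2 library, with a median log2 ratio of 1.25. Over all 337 miRNAs compared, 26.1% were at least 2-fold higher in the M1 library and 22.8% in the M2 library. The lists are short, and none was tested against these shares. Of 8 stromal and fibroblast markers, 6 were compared, 3 were at least 2-fold higher in the M1 library and none in the M2 library, and the median was 1.39. Their summed level was 1923 units in the M1 library and 1059 units in the M2 library, below that of miR-10b-5p alone in the M1 library and above it in the M2 library. The 3 that were at least 2-fold higher in the M1 library include both arms of miR-145a, so they are not separate markers. In the M2 library these arms were at 1.39 units (5p) and 0.098 units (3p), under the 3.67 units that 3 reads are worth. miR-214-5p was at 0 in both, and miR-145a-5p, a defining marker of smooth muscle and related stromal cells, had a log2 value of 5.17 in the M1 library and 1.25 in the M2 library. miR-143-3p, its cluster partner, had 8.63 and 8.96.

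The remaining marker lists were set beside miR-10b-5p and the shares of all compared miRNAs in the same way. Both endothelial markers, the arms of miR-126a, lay within 2-fold, and their summed level was 962 units in the M1 library and 589 units in the M2 library. Of 7 epithelial markers, 5 were compared, 2 were at least 2-fold higher in the M1 library and the other 3 were lower there but within 2-fold. The epithelial median log2 ratio was -0.46, with sums of 248 units in the M1 library and 178 units in the M2 library. Of 5 erythroid markers, 4 were compared and all 4 were at least 2-fold higher in the M1 library. Their list had sums of 7948 units in the M1 library and 1498 units in the M2 library. The 4 include miR-486a-5p and miR-486b-5p, which may hold the same reads. These entries may therefore not be separate markers, in the count or in the sums. The hepatocyte marker miR-122-5p had a log2 ratio of 2.24, with 59764 units in the M1 library and 12650 units in the M2 library. The part of these other cells in the miR-10b-5p difference was not tested. In exosome RNA, fewer vesicles of one source and less RNA per vesicle cannot be told apart.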

How the data were processed

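Small RNA libraries from exosomes of M1 and M2 macrophages, 1 each, were made with a NEBNext small RNA kit from 500 ng of RNA, per the labels' protocols. Per the submitters' processing notes, Bowtie2, bedtools and the mm10 build were used, with no version or role stated. How reads were assigned, whether strand was used and how the libraries were normalized is not given. The deposited log2 values were read, from the values themselves, as log2(level + 1). M2 values below the worth of 1 read moved with the M1 value, so the libraries were treated as normalized together.

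The worth of 1 read was the lowest level among 175 miRNAs in M1 exosomes (M2 below 0.5 units) and 129 in M2 exosomes (M1 at 0). Of these, 99.4% and 95.3% were whole multiples within 0.1 step. Steps are known only at low levels. Intervals and limits cover counting error only.

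Ratios are M1 minus M2 on the log2(level + 1) scale, which understates differences of low miRNAs. Comparison needed 10 units in at least 1 library. The design allowed for counts, but the files hold log2 values, so no count model was used. The text names all 6 members, the other Hox-cluster arms, miR-99 and miR-100, the 3 nearest miRNAs to each miR-10 guide, and marker lists. Other names are pairs of identical or single-base sequences and examples of low levels. They were chosen after their values were seen, as was the count of arm bias over all names. The members and lists were chosen with earlier results of these data known. Same-seed pairs used the 293 compared miRNAs, 86.9%, with 1 RefSeq mature sequence. The comparison was tested on simulated data. Alternatives were other minimums, scalings and pseudocounts. Calculations used Python 3.11.15, numpy 2.4.6, scipy 1.17.1 and matplotlib 3.10.9.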

Additional observations from a re-analysis of the deposited data

How the results depend on the processing

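No paired analysis was possible because there is 1 library in either group, which also means that none can be omitted. The log2 ratio of miR-10b-5p stayed between 2.03 and 2.19, that of miR-10a-5p between 0.01 and 0.18, and that of miR-10a-3p between -0.76 and -0.56 over the scalings, minimums and pseudocounts tried. miR-10a-3p is not compared at a minimum of 100 units. The gap between the miR-10 guides stayed near 2.00 log2 units at every pseudocount, and the arm difference of miR-10a moved most with a pseudocount of 10 units, to 9.13 in the M1 library and 8.49 in the M2 library. With no minimum, 2 members were at least 2-fold apart, because miR-196a-5p is then counted although it was listed at 0 in the M1 library. The number of all miRNAs at least 2-fold apart was 430 with no minimum, 70 with a minimum of 100 units and 92 with 10 units required in both libraries, against 165. Fewer or more miRNAs are compared under these minimums by construction. Division of each library by its summed level moved the median log2 ratio of all miRNAs to 0.15, against 0.04. The low read steps limit miR-10b-3p and miR-196, and the missing replicates limit every difference.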

Other observations

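The base at which the miR-10 guides differ lies in a stretch shared with miR-99 and miR-100, and the ratios sorted by that base. This was noticed after the values were seen, no test was made, and it rests on 5 miRNAs in 2 libraries. Among the 1677 listed miRNAs with a RefSeq sequence, 3 hold the stretch GUAGAUCCGA and 2 hold GUAGAACCGA. Of the miRNAs with U, miR-10a-5p and miR-100-5p had log2 ratios of 0.08 and -0.22, and miR-99a-5p was 2.01-fold lower in the M1 library. Those with A were miR-10b-5p and miR-99b-5p, at 2.09 and 2.19, each over 4-fold higher in the M1 library. Their hairpins lie on chromosomes 11, 16 and 9 for the U forms and on chromosomes 2 and 17 for the A forms, and 2 seeds occur among them. The other arm of the miR-99b hairpin, miR-99b-3p, lacks the stretch and was also higher in the M1 library. Its log2 values were 9.71 in the M1 library and 7.97 in the M2 library. Whether the base has any part in the ratios was not tested.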
